A study of Homo sapiens with 10 samples.

Results

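The genes described here are 10 transcription regulators that cells switch on quickly after a stimulus or that work beside such factors: MYC, the AP-1 subunits FOS, FOSL1, FOSL2, JUN, JUNB and JUND, the AP-1 partner ATF3, and the early response genes EGR1 and IER2. They were taken by gene symbol from tables that list 60554 genes, and all 10 were found, each under 1 gene identifier. The libraries come from Caco-2, a human colon carcinoma line that forms an enterocyte-like sheet. Every group carried dCas9-KRAB, a nuclease-dead Cas9 joined to a transcriptional repressor, in a puromycin-selected clone of that line, and received a second lentiviral plasmid with a hygromycin gene. That plasmid was empty in gCtl (5 libraries) and held the guide RNA g1 (3 libraries) or g2 (2 libraries) in the others, both directed at the long noncoding RNA LHFPL3-AS2. The comparisons ask how the 10 genes differ between cells with a guide against that RNA and cells with the empty plasmid.

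AP-1 is a dimer of basic leucine zipper proteins in which a JUN family protein pairs with itself, with a FOS family protein or with relatives such as ATF3. FOS, EGR1, ATF3 and IER2 are classic immediate early genes, transcribed within minutes of growth factor, stress or adhesion signals and quickly shut off, and their messages are short-lived. MYC is a growth regulator driven by Wnt signalling in the intestine, where it is high in the crypt and in colon cancer. Each message was read by QuantSeq, which sequences the 3' end of polyadenylated RNA, and a level is given as CPM, the estimated counts scaled to a common library size by TMM normalization.

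LHFPL3-AS2 itself was not lower in the libraries labelled g1 and g2. It stood at 0.805 to 3.61 CPM in gCtl, 2.16 to 3.88 CPM in g1 and 2.37 to 6.40 CPM in g2, and the mean of log2(CPM + 1) was 0.53 higher in the 5 guide libraries than in gCtl (exact permutation test, two-sided, p = 0.143; n = 5 and 5). Its low level limits this check, and guide libraries below means the libraries labelled g1 and g2. Library totals ran from 3838803 to 8730468 estimated counts, and mitochondrially encoded genes held 18.3 to 24% of the counts in gCtl, 19.0 to 20.6% in g1 and 12.0 to 16.8% in g2. The part of that share in the results was not tested, although leaving those genes out changed no call of the 10 genes except that of JUN in g1. Of 15 markers of intestinal epithelium 11 passed the filter, with VIL1 at 121 to 205 CPM and CDX2 at 39.2 to 77.5 CPM, whereas SI reached 3.04 CPM, APOA4 1.26 CPM and CDX1 0.359 CPM at most. The summed level of the list was 2184 to 2922 CPM in gCtl and 2086 to 2819 CPM in the guide libraries, and 15 markers of blood, vessel, stroma and glia summed to 32.6 to 56.2 and 31.8 to 51.6 CPM. The labels do not say that libraries of a group are separate cultures, so p-values measure the spread between these libraries, which may be technical, and in bulk RNA fewer cells expressing a gene cannot be told apart from less RNA per cell.

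Promoters are shown for the genes whose levels moved or varied most: FOS, JUND, ATF3 and EGR1. They are RefSeq windows on GRCh38.p14 from 250 bases before to 50 after the start site, in the direction of transcription, with motif matches on either strand in capitals. The motifs searched were the cAMP response element (CRE) TGACGTCA, its core TGACG, the AP-1 element (TRE) TGACTCA, the E-box CACGTG bound by MYC, the EGR site GCGTGGGCG, the TATA box TATAAA and the CArG box of serum response factor. A CRE also counts as a match to its core. Windows were at hand for 8 of the 10 genes, 9 windows in all.
FOS, chr14:75278578-75278877, plus strand: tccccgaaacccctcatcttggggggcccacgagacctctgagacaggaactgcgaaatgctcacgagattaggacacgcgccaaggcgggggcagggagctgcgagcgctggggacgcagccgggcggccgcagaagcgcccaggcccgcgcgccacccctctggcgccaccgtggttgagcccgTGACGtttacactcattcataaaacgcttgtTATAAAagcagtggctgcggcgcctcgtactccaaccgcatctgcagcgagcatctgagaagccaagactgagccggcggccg
JUND, chr19:18281573-18281872, minus strand: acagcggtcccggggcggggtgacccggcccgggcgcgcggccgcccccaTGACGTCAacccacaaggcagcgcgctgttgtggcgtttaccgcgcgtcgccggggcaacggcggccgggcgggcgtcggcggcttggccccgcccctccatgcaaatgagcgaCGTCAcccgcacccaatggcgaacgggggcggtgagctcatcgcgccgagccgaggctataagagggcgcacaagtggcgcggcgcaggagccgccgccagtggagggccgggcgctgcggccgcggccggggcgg
EGR1, chr5:138465229-138465528, plus strand: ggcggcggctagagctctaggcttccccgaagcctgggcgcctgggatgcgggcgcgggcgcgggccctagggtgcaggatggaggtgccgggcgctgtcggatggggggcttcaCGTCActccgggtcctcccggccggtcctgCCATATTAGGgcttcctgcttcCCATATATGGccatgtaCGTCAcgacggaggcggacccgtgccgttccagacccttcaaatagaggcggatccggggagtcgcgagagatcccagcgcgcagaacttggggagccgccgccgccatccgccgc
ATF3, upstream start, chr1:212565157-212565456, plus strand: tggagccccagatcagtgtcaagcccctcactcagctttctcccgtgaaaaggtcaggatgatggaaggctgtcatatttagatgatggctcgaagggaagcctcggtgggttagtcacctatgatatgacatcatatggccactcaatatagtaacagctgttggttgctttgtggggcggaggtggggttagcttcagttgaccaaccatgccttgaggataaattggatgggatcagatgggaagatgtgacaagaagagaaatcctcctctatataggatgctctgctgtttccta
ATF3, internal start, chr1:212614768-212615067, plus strand: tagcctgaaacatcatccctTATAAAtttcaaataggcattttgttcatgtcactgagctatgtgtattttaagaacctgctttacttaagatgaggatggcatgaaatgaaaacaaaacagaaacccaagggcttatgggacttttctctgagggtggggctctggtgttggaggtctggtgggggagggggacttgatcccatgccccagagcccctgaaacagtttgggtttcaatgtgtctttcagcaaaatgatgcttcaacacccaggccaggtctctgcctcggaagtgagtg
The FOS window held the CRE core at -64 and a TATA box at -33, counted from the start site. The JUND window held a full CRE at -200 and a further core at -86, and no window of the other genes held a full CRE, which 1.85% of 35116 RefSeq windows did. The EGR1 window held CArG boxes at -105 and -83, and 1.29% of all windows held such a box. A TRE, found in 4.95% of all windows, stood at 5 in FOSL2. The core occurred in 24.6% of all windows and also in those of FOSL2, JUN, JUNB, EGR1 and IER2, but in neither ATF3 window. The start of the transcript model ATF3-001, at chr1:212608670, lies in neither ATF3 window, so the promoter there was not searched. ATF3-007, a model that starts at 212608915, held 31.6 counts in gCtl and 85.3 in the guide libraries. TATA boxes occurred in 11.5% of all windows, and no E-box (7.26%) or EGR site (0.795%) was found in the 9 windows. A match is a description of letters and no test of binding.

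FOS, JUND and ATF3 rose with both guides. With g1 FOS was 3.14-fold, ATF3 2.55-fold and JUND 1.94-fold higher than gCtl, and with g2 the values were 6.94-fold, 2.31-fold and 2.40-fold. JUN passed the test with g1 alone, MYC with neither guide. Called here means a fold change of 1.5 or more together with an adjusted p no higher than 0.05, in edgeR's quasi-likelihood test with Benjamini-Hochberg adjustment over 11640 genes. Of the 9 genes tested, 4 were called higher with g1 and none lower, where 16.7% of all genes tested were called, 6.81% of them higher and 9.91% lower. With g2 3 were called higher, against 23.7% of all genes tested (10.7% higher, 13.0% lower). With the libraries of both guides pooled, 3 were called higher, against 19.2% of all genes (8.14% higher, 11.0% lower). The median log2 fold change of the 9 was 0.51 with g1, 0.46 with g2 and 0.49 together, beside 0.01, -0.0017 and 0.02 over all genes tested. Both guide comparisons use the same 5 gCtl libraries.

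**Figure D1:**
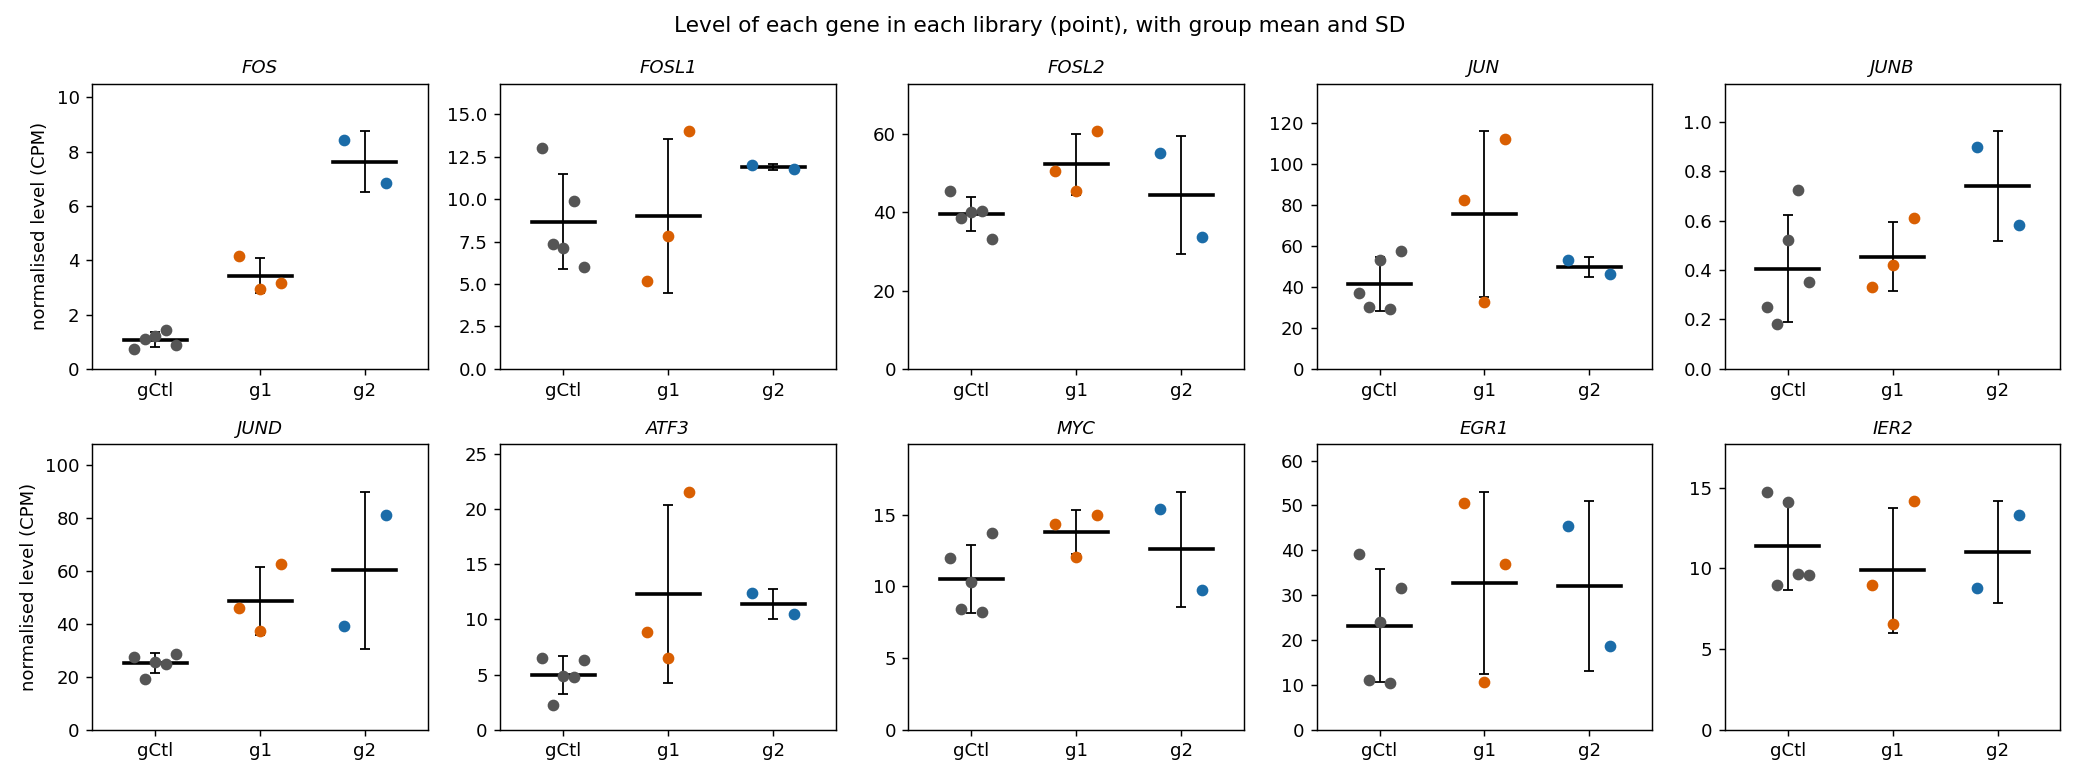
Level in CPM (vertical axis, linear from 0) of each of the 10 genes in every library of gCtl (5), g1 (3) and g2 (2). Points are libraries, horizontal lines group means and bars the SD. FOS, JUND and ATF3 lie higher in every g1 and g2 library than in any gCtl library, and the EGR1 points of each group are spread widely.

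FOS, the archetypal immediate early gene and a partner of the JUN proteins in AP-1, was barely expressed in gCtl. It stood at 0.750, 1.10, 1.22, 1.44 and 0.880 CPM in the 5 gCtl libraries, at 4.17, 2.95 and 3.17 CPM in g1, and at 8.43 and 6.83 CPM in g2. Every guide library lay above every gCtl library, and both g2 libraries lay above all of g1. The log2 fold change was 1.65 ± 0.37 (SE) with g1 (edgeR, adjusted p = 0.00651) and 2.79 ± 0.38 with g2 (adjusted p = 0.000157). It was 2.22 ± 0.40 with both guides together (adjusted p = 0.00155). Between g2 and g1 the difference of 1.14 ± 0.39 was not called (adjusted p = 0.107). These values rest on few counts, 27 in all of gCtl, 65 in g1 and 94 in g2. FOS passed the filter on low values through the guide libraries, since 0 of 5 gCtl libraries exceeded the minimum of 3 RPM (counts scaled by library total), and in a fit without that filter its log2 fold changes were 1.66 and 2.79.

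Most of the extra FOS counts were assigned to transcript models other than the full-length one. FOS-001, the spliced message, held 14.7 of the 27.0 counts in gCtl and 29.2 of 159 in the guide libraries, that is 54.4 and 18.4%. FOS-008 and FOS-011, shorter models that keep 115 and 367 bases of FOS-001 introns and end 1441 and 643 bases before its 3' end, went from 1.68 to 62.7 counts and from 10.6 to 63.3 counts. The 6 FOS models with intronic bases together held 45.6% of FOS counts in gCtl, 83.2% in g1 and 80.5% in g2. With those models left out, an alternative chosen after the data were seen, FOS was no longer called. Its log2 fold change was then -0.04 ± 0.81 with g1 (edgeR, adjusted p = 0.979), 1.29 ± 0.79 with g2 (adjusted p = 0.242) and 0.64 ± 0.70 together (adjusted p = 0.541). Where within the gene the reads fell is not in the tables, and how counts shared by several models were divided was not tested.

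JUND, the AP-1 subunit that is made steadily in many tissues rather than induced, had 1 transcript model with counts and no such split. Its levels were 27.5, 19.3, 25.6, 24.8 and 28.7 CPM in gCtl, 45.8, 37.1 and 62.6 CPM in g1, and 39.3 and 81.1 CPM in g2. All guide libraries exceeded all gCtl libraries, and the g2 pair differed by 2.07 times. The log2 fold change was 0.95 ± 0.22 with g1 (edgeR, adjusted p = 0.00740) and 1.26 ± 0.24 with g2 (adjusted p = 0.00196). Without the highest g1 library, replicate 3, the g1 value was 0.71 and not called (adjusted p = 0.0642). Without the highest g2 library, replicate 2, the g2 value was 0.65 and not called (adjusted p = 0.108). Both guides pooled gave 1.08 ± 0.21 (adjusted p = 0.00226), which stayed called when any library was left out. JUND has the highest GC content among the 10 genes, 69.7% of its transcript, and after removal of trends with the length and GC content of transcripts (an alternative chosen after the data were seen) its log2 fold changes were 1.29 and 1.84.

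ATF3, a stress-induced factor that pairs with JUN proteins and often represses, stood at 6.50, 2.20, 4.88, 4.81 and 6.33 CPM in gCtl. It reached 8.83, 6.54 and 21.6 CPM in g1 and 12.4 and 10.5 CPM in g2. The groups did not overlap, but the lowest g1 library (6.54 CPM) and the highest gCtl library (6.50 CPM) nearly met. The log2 fold change was 1.35 ± 0.37 with g1 (edgeR, adjusted p = 0.0178), 1.21 ± 0.42 with g2 (adjusted p = 0.0427) and 1.29 ± 0.34 together (adjusted p = 0.0128). Without g1 replicate 3 the g1 value was 0.63 (adjusted p = 0.271), and the g2 call held in 9 of 16 other settings and in 2 of 7 fits that left out a library.

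As with FOS, much of the ATF3 increase lay in a short model with intronic bases. ATF3-006 begins at the internal start shown above, keeps 221 bases of ATF3-001 introns and ends 1511 bases before that transcript. It held 25.4 counts in gCtl and 192 in the guide libraries, 20.8 and 47.9% of ATF3 counts, and 125 of those counts came from g1 replicate 3. ATF3-201, which runs from the upstream start to within 5 bases of the main 3' end, held 37.7 and 89.1 counts. Without the models that keep intronic bases the log2 fold change was 0.51 with g1, 1.03 with g2 and 0.74 together, and none was called (edgeR, adjusted p = 0.518, 0.187 and 0.260). FOS, JUND and ATF3 are 3 of the 9 tested genes in which all 5 guide libraries lay above all 5 gCtl libraries, which held for 7.08% of all genes tested. Among them FOS passed the filter only through guide libraries.

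JUN, the subunit that gives AP-1 most of its activity and activates its own promoter, was called with g1 but its libraries overlapped. It stood at 37.2, 30.3, 53.4, 29.1 and 57.7 CPM in gCtl, at 82.3, 32.5 and 113 CPM in g1, and at 53.1 and 46.4 CPM in g2. Replicate 2 of g1 lay among the gCtl libraries and the other g1 libraries above them. The log2 fold change was 0.87 ± 0.30 with g1 (edgeR, adjusted p = 0.0493), 0.25 ± 0.35 with g2 (adjusted p = 0.624) and 0.65 ± 0.29 together (adjusted p = 0.112). The g1 call held in 8 of 16 other settings and in 2 of 8 fits that left out a library, and its value without g1 replicate 3 was 0.45 (adjusted p = 0.371). The difference between g2 and g1 was -0.62 ± 0.38 (adjusted p = 0.382).

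JUNB, a JUN relative with weaker activating power, was close to absent, with 1 to 5 counts in every library. It held 10 counts in gCtl, 9 in g1 and 9 in g2, which is 0.184 to 0.722 CPM in gCtl and 0.333 to 0.896 CPM in the guide libraries. It did not pass the filter, and its mean log2(CPM + 1) differed by 0.16 between the guide and gCtl libraries (exact permutation test, two-sided, p = 0.262; n = 5 and 5). HOOK2 overlaps JUNB on the opposite strand, and whether strand was used in the counting is not given in the sources used here.

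The FOS relatives FOSL1 and FOSL2, which lack the strong activating region of FOS and persist longer after a stimulus, were not called in any comparison. FOSL1 stood at 13.0, 7.34, 7.15, 9.87 and 5.98 CPM in gCtl, 5.17, 7.81 and 14.0 CPM in g1, and 12.0 and 11.8 CPM in g2. All groups overlapped, and the log2 fold change was 0.09 ± 0.32 with g1 and 0.47 ± 0.35 with g2. FOSL2 stood at 45.5, 38.6, 40.1, 40.2 and 33.2 CPM in gCtl, 50.5, 45.4 and 60.6 CPM in g1, and 55.0 and 33.7 CPM in g2. Its log2 fold change was 0.41 ± 0.17 with g1 (edgeR, adjusted p = 0.104) and 0.17 ± 0.20 with g2 (adjusted p = 0.564). FOSL2-002, a shorter model of the gene, held 70.1% of FOSL2 counts in gCtl and 33.7% in g2, and FOSL2-001 held 29.4 and 64.1%, with the split varying between gCtl libraries too.

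MYC, the growth regulator, did not pass the test with either guide. Its levels were 12.0, 8.45, 10.3, 8.18 and 13.7 CPM in gCtl, 14.3, 12.0 and 15.0 CPM in g1, and 15.4 and 9.74 CPM in g2. The groups overlapped. The log2 fold change was 0.39 ± 0.23 with g1 (edgeR, adjusted p = 0.255), 0.25 ± 0.27 with g2 (adjusted p = 0.523) and 0.34 ± 0.21 together (adjusted p = 0.250), and values within 2 SE of the last run from -0.08 to 0.75. MYC counts divided differently among transcript models. MYC-006 held 89.5% of them in gCtl, 40.1% in g1 and 76.5% in g2, and MYC-004, whose 3' end lies 62 bases before that of MYC-001, held 4.0, 58.7 and 22.5%. By library MYC-004 had 0, 0.917, 0, 0 and 9.70 counts in gCtl, 32.3, 43.1 and 80.8 in g1, and 0 and 34.4 in g2, so that 4 of 5 guide libraries lay above gCtl. No test was run on transcript shares.

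EGR1, a zinc finger factor induced through serum response factor at the CArG boxes shown above, varied more between libraries of a group than between groups. It stood at 39.2, 11.0, 23.9, 10.3 and 31.5 CPM in gCtl, at 50.5, 10.6 and 37.0 CPM in g1, and at 45.4 and 18.6 CPM in g2. The low libraries were gCtl replicates 2 and 4, g1 replicate 2 and g2 replicate 2. The log2 fold change was 0.51 ± 0.45 with g1 (edgeR, adjusted p = 0.453) and 0.46 ± 0.51 with g2 (adjusted p = 0.538). Its SD within groups on the log2(CPM + 1) scale was 0.94, and 99.5% of the 11640 genes tested had a smaller one. The median SD of the 1000 genes nearest in level was 0.26. JUN (0.60) and ATF3 (0.58) also exceeded 95.4 and 94.8% of the genes tested in this SD, MYC (0.29) exceeded 49.9% and FOS (0.19) 20.9%. The added 1 shrinks this SD for genes near 1 CPM, where FOS stood in gCtl. Its place among all genes is therefore no measure of how steady it was.

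IER2, a small nuclear protein made in the first minutes of a growth response, stood at 14.7, 9.0, 14.1, 9.63 and 9.59 CPM in gCtl. Its levels were 8.95, 6.56 and 14.2 CPM in g1 and 8.80 and 13.3 CPM in g2. The groups overlapped, and the log2 fold change was -0.18 ± 0.28 with g1 (edgeR, adjusted p = 0.690) and -0.05 ± 0.32 with g2 (adjusted p = 0.929). No gene of the 9 was called between g2 and g1, where 4.97% of all genes were, 1 (FOS) had an unadjusted p under 0.05 in edgeR, and DESeq2 called 0.

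**Figure D2:**
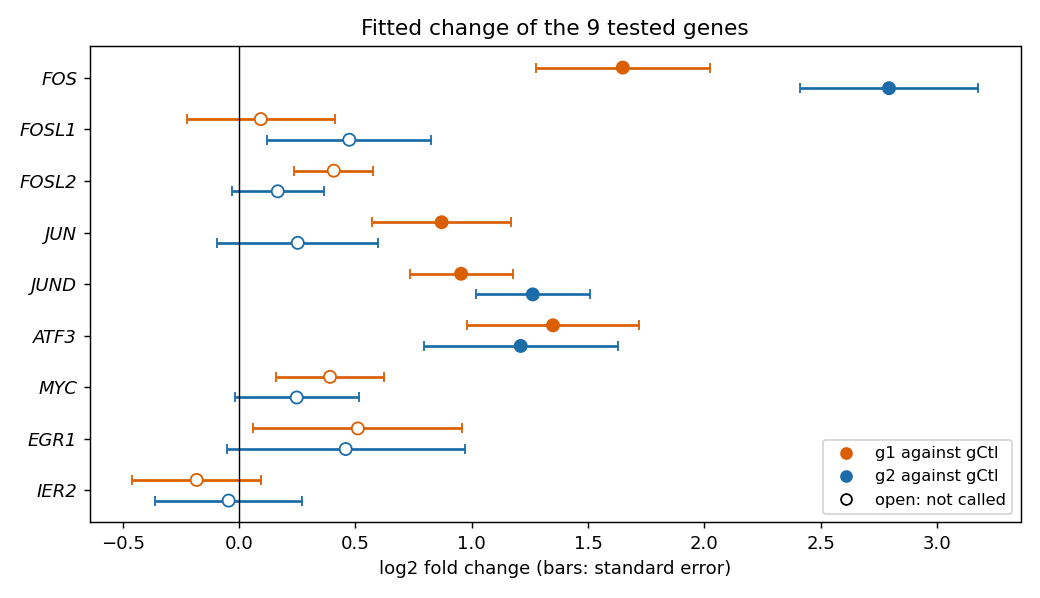
Log2 fold change (horizontal axis) of the 9 tested genes in g1 and g2 against gCtl, from edgeR. Bars are standard errors, filled points were called and open points were not. FOS, JUND and ATF3 are filled for both guides and JUN for g1, and the FOS points at 1.65 and 2.79 lie farthest to the right.

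Per length, in TPM computed from the deposited counts, the gCtl order of mean levels was JUND (17.9 ± 2.53 SD, n = 5), JUN (15.5 ± 4.75), EGR1 (9.76 ± 5.33), ATF3 (9.13 ± 2.77), FOSL2 (8.88 ± 1.36), FOSL1 (8.27 ± 2.56), IER2 (7.22 ± 1.89), MYC (6.36 ± 1.80), FOS (0.950 ± 0.091) and JUNB (0.296 ± 0.163). Neighbours from EGR1 to MYC in that order differed by less than their SD. JUND and JUN overlapped, and FOS and JUNB stood apart from the rest and from each other. QuantSeq reads lie near the 3' end whatever the length of a message, so TPM can understate long messages in this order. It can also overstate counts assigned to short models, such as ATF3-006 (482 bases) and ATF3-007 (516 bases). In CPM ATF3 averaged 4.95 in gCtl, below all but FOS and JUNB, where MYC averaged 10.5 and FOSL2 39.5.

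By the root mean square difference of centred log2(CPM + 1) profiles over the 10 libraries, the genes most like FOS were CBWD3, PRR15L and MMP14 (0.243, 0.246 and 0.261, beside 0.827 for the FOS profile itself). JUND was most like TPM1, SIPA1L3 and ST6GAL2 (0.167, 0.174 and 0.181). ATF3 was most like KLF6, itself an immediate early gene, then BIRC3 and DUSP8 (0.185, 0.232 and 0.238). The neighbours of JUN were RIMKLA, LRSAM1 and RFX5 (0.236, 0.259 and 0.282), and those of MYC were FAM177A1, GABPA and ALG10B (0.115, 0.115 and 0.126). EGR1 had no close neighbour, the nearest being GDF7 at 0.390 beside 0.815 for its own profile.

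The other immediate early genes moved in both directions. Of 52 listed, 34 were tested, 8 were called higher and 2 lower with the guides together, with a median of 0.09. That is 23.5 and 5.88% of the list, beside 8.14 and 11.0% of all genes tested. CXCL1 and KLF4 reached at most 1.9 and 1.2 CPM in gCtl. Like FOS, they passed the filter on low values through the guide libraries where they are high. The share called higher includes them, so it is not free of that selection. CXCL1, a neutrophil chemokine, rose from 1.24 ± 0.465 CPM (SD, n = 5) in gCtl to 6.71 ± 0.434 CPM in g1 (n = 3) and 3.70 ± 0.0927 CPM in g2 (n = 2). PLK2, a kinase induced by serum, rose from 5.63 ± 1.71 CPM to 18.6 ± 12.4 and 17.6 ± 4.53 CPM, and no guide library of either gene overlapped gCtl. KLF4, a factor of differentiated epithelium, had a log2 fold change of 2.01 ± 0.60 together (edgeR, adjusted p = 0.0243). It was not called with g1 (edgeR, adjusted p = 0.0664), where its libraries overlapped gCtl. ID1, a dominant-negative partner of bHLH factors, fell by 3.54 on the log2 scale, from 18.1 ± 12.8 CPM to 0.925 ± 0.542 CPM in g1 and 2.48 ± 2.07 CPM in g2. Its gCtl libraries ran from 2.99 to 35.5 CPM, and g2, at up to 3.94 CPM, overlapped them. With g1 7 genes of the list were called higher and 4 lower (20.6 and 11.8%, beside 6.81 and 9.91% of all genes). With g2 the counts were 8 and 3 (23.5 and 8.82%, beside 10.7 and 13.0%).

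Among 22 tested AP-1 and related bZIP factors outside the 10, 2 were called higher and 4 lower with the guides together (9.09 and 18.2%, beside 8.14 and 11.0% of all genes), with a median of 0.18. By guide the balance differed, with 4 higher and 2 lower in g1 (18.2 and 9.09%, beside 6.81 and 9.91% of all genes). In g2 1 was higher and 2 lower (4.5 and 9.09%, beside 10.7 and 13.0%). The small MAF proteins, which pair with other bZIP factors, went opposite ways. MAFF rose by 1.12 ± 0.22 on the log2 scale, and MAFK fell from 9.73 ± 3.33 CPM in gCtl to 4.0 ± 0.730 CPM in g1 and 3.64 ± 0.191 CPM in g2. CEBPB, a factor of acute-phase and inflammatory genes, had a log2 fold change of -1.24 ± 0.40 together (edgeR, adjusted p = 0.0357), and CREB5 one of -0.88 ± 0.29 (adjusted p = 0.0395). CEBPB was not called with g2 (edgeR, adjusted p = 0.253) nor CREB5 with g1 (adjusted p = 0.164), and both overlapped gCtl there. NFE2L2, the oxidative stress factor, and ATF4, the amino acid stress factor, were not called (0.46 and -0.17). NFE2L2 missed the call on fold change alone, at 1.37-fold together (edgeR, adjusted p = 0.0272) and 1.49-fold with g2 (adjusted p = 0.0208).

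SRF, the factor that binds CArG boxes, fell with both guides. Its level was 74.3 ± 10.8 CPM (SD, n = 5) in gCtl, 38.1 ± 11.8 CPM in g1 and 24.6 ± 9.75 CPM in g2, with no overlap, and the log2 fold changes were -0.97 ± 0.21 and -1.58 ± 0.26 (edgeR, adjusted p = 0.00526 and 0.000573). Of 12 tested genes for SRF, its partners and other ETS factors 2 were called higher and 3 lower together, with a median of 0.13. That is 16.7 and 25.0%, beside 8.14 and 11.0% of all genes. ETS1 reached at most 2.87 CPM in gCtl, and ELK1 at most 2.51 CPM in the guide libraries. Each passed the filter on low values only through the side where it is high, so these shares are not free of that selection. ELK1, a ternary complex factor that docks on SRF, had a log2 fold change of -3.01 ± 0.59 with g1 (edgeR, adjusted p = 0.00261), and -0.98 ± 0.55 with g2 (adjusted p = 0.202). ETV5, an ETS factor downstream of growth factor signalling, fell from 16.3 ± 2.06 CPM to 3.99 ± 2.21 CPM in g1 and 2.47 ± 0.819 CPM in g2. ETS1 had a fitted value of 2.15 ± 0.70 together, but its g1 libraries ran from 1.12 to 21.6 CPM. With g2 ETS1 was not called (edgeR, adjusted p = 0.186).

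Of 18 tested partners and relatives of MYC 2 were called higher and 1 lower together, with a median of 0.05. This share of 16.7% lies near the 19.2% of all genes tested. By direction it is 11.1 and 5.56%, beside 8.14 and 11.0% of all genes. With g1 1 was called higher and 1 lower (5.56% each, beside 6.81 and 9.91% of all genes). With g2 the counts were 1 and 3 (5.56 and 16.7%, beside 10.7 and 13.0%). MYCN, the neural MYC paralog, fell by 1.87 ± 0.39 on the log2 scale together, from 8.30 ± 3.17 CPM in gCtl to 2.13 ± 1.13 CPM in g1 and 2.50 ± 0.993 CPM in g2. MXD4 and MNT, which compete with MYC for MAX and repress, rose by 1.0 ± 0.23 and 0.60 ± 0.17 together, but MXD4 was not called with g2 (edgeR, adjusted p = 0.0810) nor MNT with g1 (adjusted p = 0.0778). Of 46 tested MYC targets of ribosome making and growth, 10 were called lower and 1 higher together, with a median of -0.14, that is 21.7 and 2.17% beside 11.0 and 8.14% of all genes tested. The counts were 9 and 2 with g1 and 10 and 0 with g2 (medians -0.125 and -0.34), and 9.91 and 13.0% of all genes were called lower with g1 and g2. RRP9, a ribosomal RNA processing factor, fell from 9.86 ± 2.54 CPM to 2.64 ± 0.466 CPM in g1 and 3.62 ± 1.22 CPM in g2. CDC25A, a cell cycle phosphatase, fell from 28.0 ± 4.94 CPM to 10.7 ± 1.81 and 11.0 ± 1.10 CPM. SRM, the spermidine synthase, was at 59.9 ± 10.8 CPM in gCtl, 35.8 ± 8.36 CPM in g1 and 8.62 ± 3.10 CPM in g2, and BOP1, a ribosome assembly factor, had a log2 fold change of -0.92 ± 0.19 together. NCL and HSPD1, the most abundant of those not called, had values of 0.14 and 0.01.

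Of 34 AP-1 targets 18 were tested, and with the guides together 3 were called higher and none lower (edgeR; 7 had an unadjusted p under 0.05 in either direction, and DESeq2 called 4), with a median of 0.12. The share called in either direction, 16.7%, lies near the 19.2% of all genes tested. By direction all of it was higher, beside 8.14% of all genes called higher and 11.0% lower. GCLC, an enzyme of glutathione synthesis, rose by 0.71 ± 0.20 with g1 and 1.21 ± 0.22 with g2. AREG, an EGF receptor ligand, stood at 253 ± 48.1 CPM in gCtl, 444 ± 103 CPM in g1 and 408 ± 73.8 CPM in g2, without overlap. VEGFA had a log2 fold change of 0.79 ± 0.18 with g1 and 0.31 ± 0.21 with g2, where it was not called. With g1 alone 5 of the list were called higher and 1 lower (27.8 and 5.56%, beside 6.81 and 9.91% of all genes). With g2 alone 2 were called higher and 2 lower (11.1% each, near the 10.7 and 13.0% of all genes). Among 14 tested heat shock and stress genes 1 was called together, HSPB1, a small heat shock protein, at -2.09 ± 0.35 (median of the list -0.09). That is 7.14%, beside 19.2% of all genes tested. In this list 1 gene was called lower with g1, and 1 higher and 1 lower with g2. Those shares are 7.14 and 14.3%, beside 16.7 and 23.7% of all genes. No intestinal epithelium marker of 11 was called together, beside 19.2% of all genes tested. Of the 11, 3 had an unadjusted p under 0.05 in edgeR and DESeq2 called 0. With g2 alone, however, 2 were called higher and 1 lower (18.2 and 9.09%, beside 10.7 and 13.0% of all genes). Of 5 tested markers of other cell types PDGFRA and CD14 were called lower together (-2.27 and -1.67).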

How the data were processed

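QuantSeq 3' libraries were single-end, and the authors pseudoaligned their reads to GENCODE transcripts with Kallisto, given as version 42.5 in the submitters' processing notes. They deposited 1 table per library with estimated counts for 199169 transcripts, not normalized and not pooled. The strand setting is not given in the sources used here.

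Estimated counts were summed per gene and rounded. Genes that have a protein-coding transcript and exceed 3 RPM (counts over the library total) in at least 20% of libraries were fitted (11640 genes) in R 4.3.3 with edgeR 4.0.16 (TMM, glmQLFit, glmQLFTest, Benjamini-Hochberg). Replicate numbers only name libraries, since the labels give none. A fit of 3 groups gave each guide against gCtl and g2 against g1, and a fit of 2 groups gave both guides against gCtl. SE is the log2 fold change divided by the root of F. CPM uses TMM-scaled totals. Single genes outside the filter were compared by exact permutation. The fit was tested on simulated data.

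The 10 genes, the 9 lists of 236 other genes and the rule for naming were chosen with earlier results of these data known. From each list the rule took up to 4 called genes with the largest change together and the 2 most abundant genes not called. For likeness it took the 3 nearest genes. Of the abundant genes not called together, the text names only NFE2L2, ATF4, NCL, HSPD1 and HSPA5. Among those left out, ZFP36L2 was called lower with g1 (-1.50), and SRFBP1 and HSP90AA1 higher with g2 (0.61 and 0.69). The rest, such as CCND1 at -0.23 together, were called with neither guide. EGR1's spread and neighbours and the transcript splits were singled out after their values were seen. Alternatives were DESeq2 1.42.0, limma 3.58.1 on log2(RPM + 1) and log2(RPM + 0.1), other scalings, filters, thresholds, transcripts and groupings, and each library left out. Those on intronic models and on length and GC trends (11548 genes, loess span 0.3) were chosen after the data were seen. GENCODE v29 gave the exon structures on GRCh38. No guide sequence is printed. Counts set the precision, and 1 count was 0.115 to 0.261 RPM, for counting error only.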

Additional observations from a re-analysis of the deposited data

Results flagged for a closer look

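Of 179 tested genes on the lists 11 were called in the direct test of g2 against g1, 2 higher and 9 lower in g2 (edgeR, adjusted over all genes), which is 6.15% beside 4.97% of all genes. Among those described above or most abundant on their lists, SRM had a log2 fold change of -2.08 (adjusted p = 0.000906), HSPA5, an endoplasmic reticulum chaperone, one of -0.91 (adjusted p = 0.00812), and HSPB1 one of 1.41 (adjusted p = 0.0498). HSPA5 was 0.51 higher than gCtl with g1 (edgeR, adjusted p = 0.0157) and 0.40 lower with g2 (adjusted p = 0.0824), and neither value was called. The g1 value missed the call on fold change alone, at 1.43-fold.

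An antisense gene over IER2, CTC-250I14.6, was not among the genes compared and averaged 2.09 CPM in the guide libraries. It was at 0 in 4 of the 5 gCtl libraries and at 0.961 CPM in the fifth, at 0.190 to 0.712 CPM in g1, and at 6.26 and 2.85 CPM in g2. Its reads and those of IER2 cannot be told apart where strand was not used. Dixon's test, run for each of the 10 genes on the 5 gCtl libraries and on the 5 guide libraries together, marked no library in these 20 tests. The g1 and g2 groups are too small to test alone.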

How the results depend on the processing

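Depth limited FOS and JUNB most, with 27 and 10 counts in gCtl. No paired analysis was possible because the labels carry no replicate numbers, and those used here only name libraries. Over all alternatives the results of the 10 genes kept their side of the threshold in 807 cases. They lost a call in 37, gained 1 and changed the sign of a called value in 1. The called value that changed sign was FOS with g1, at -0.039 without intronic models. Other genes that the rule for naming chose kept their side in 1039 cases, lost a call in 67 and gained 11. Values not called also changed sign, in 30 of the 807 cases (7 genes, to between -0.42 and 0.72) and in 32 of the 1039 (6 genes, to between -0.13 and 0.41). Without those models 2 of the 10 genes were called with g1, 1 with g2 and 1 with both guides together. Tested against a fold change of 1.5 (glmTreat), 1 of the 10 was called with g1 and 1 together, and over all genes 506 were called with g1, 802 with g2, 92 between the guides and 488 together. Calls between the guides also moved from 579 to 322 with protein-coding transcripts only and to 159 when those groups were fitted alone. Leaving out each library in turn gave 1249 to 2260 calls with g1, 1501 to 3114 with g2, 267 to 858 between the guides and 1701 to 2424 together. The calls among the 10 genes then ran from 1 to 4 with g1, 1 to 3 with g2 and 3 to 4 together, the lowest without g1 replicate 3 and g2 replicate 2. Library totals without TMM shifted the median of all genes to -0.16 with g2. Causes were not tested beyond the construction of each alternative.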
